A study of Mus musculus with 8 samples.

Results

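The genes described here encode 36 proteins that make up, regulate or restrain the lysosome: 9 cysteine cathepsins, 4 other lysosomal proteases, the cathepsin inhibitor cystatin C, 6 glycosidases, 6 proteins of lipid degradation and transport, progranulin, 4 membrane proteins, a cation channel with a transcription factor, and 3 parts of the proton pump. They were taken by symbol from the deposited table, where all 36 were present among 21878 genes. Messenger RNA was sequenced in astrocytes obtained from wild-type (WT) C57BL/6 mice at postnatal age P0. One group of 4 libraries came from cells given C1q of the complement system together with the cytokines IL-1α and TNFα (cocktail), and the other group of 4 came from cells left without treatment (untreated), so that by the labels the groups shared strain, genotype and age and differed in the cocktail. The submitters describe the cocktail as a way to bring astrocytes into a C3d+ reactive state. Dose, exposure time and the method of purification were not given in the sources used here. The treatment field of 3 cocktail libraries spells C1q with another digit, and their titles, which name C1q, were used to group them. The labels do not say whether the libraries of a group came from separate cultures or animals, so the p-values below measure the spread between libraries, which may be technical.

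Lysosomes degrade proteins, glycans and lipids delivered by endocytosis, phagocytosis and autophagy. Their proteases and glycosidases work at the low pH that the vacuolar proton pump maintains, and heavily glycosylated membrane proteins such as LAMP1 line the inner face of the organelle. Cystatin C, a secreted inhibitor of cysteine cathepsins, is one of the most abundant transcripts of astrocytes, and the transcription factor TFEB is known to activate many lysosomal genes through an E-box element in their promoters.

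Values are fragments divided by gene length and by the library's total (FPKM), so levels can be compared between genes per length. Errors given with ± are SDs over the 4 libraries of a group. The libraries held 19195898 to 20640490 fragments. At this depth 3 fragments, the limit that a count of 0 allows, correspond to 0.0727 to 0.0781 FPKM for a gene of 2 kb, by counting error only. Genes that reached 1 FPKM in 4 or more of the 8 libraries were tested with limma on log2(FPKM + 1), and a gene was called higher or lower when its Benjamini-Hochberg adjusted p was under 0.05. Fold changes below are on this log2 scale, on which low genes appear to change less than they do. The 9 astrocyte markers were present in every library and summed to 845 to 872 FPKM in cocktail libraries and 1052 to 1188 FPKM in untreated libraries. Of these, 7 were called lower, among them Gfap, at 189 ± 5.41 FPKM in cocktail and 412 ± 29.6 FPKM in untreated libraries. The 2 called higher were Slc1a2, at 52.3 ± 1.17 FPKM in cocktail and 9.73 ± 0.579 FPKM in untreated libraries, and Aqp4, at 253 ± 5.12 and 165 ± 4.43 FPKM. Of 18 microglial markers 10 reached the filter, 5 were called higher in cocktail libraries and 1 lower. The values of the 5 called higher are given below, after those of Ctss. Markers of endothelium summed to at most 1.2 FPKM in cocktail libraries and 1.28 FPKM in untreated libraries. Of 4 fibroblast markers, Lum, Dcn and Pdgfra rose and Col1a1 fell, with Lum at 7.69 ± 1.03 FPKM in cocktail and 0.237 ± 0.0631 FPKM in untreated libraries and Dcn at 8.31 ± 2.58 FPKM in cocktail and 1.45 ± 0.146 FPKM in untreated libraries. All 3 tested mural markers fell, with Acta2 at 111 ± 5.48 FPKM in cocktail and 581 ± 31.7 FPKM in untreated libraries. Both tested ependymal markers fell, with Foxj1 at 70.9 ± 5.44 FPKM in cocktail and 116 ± 5.63 FPKM in untreated libraries. Summed markers of neurons were 13.8 to 15.1 FPKM in cocktail and 21.8 to 25.2 FPKM in untreated libraries. Of 6 such markers 2 were tested. Map2 fell, at 3.56 ± 0.188 FPKM in cocktail and 10.9 ± 0.361 FPKM in untreated libraries, and Tubb3 overlapped between groups and did not pass the test. Summed markers of the oligodendrocyte lineage were 25.1 to 26.3 FPKM in cocktail and 30.1 to 32.3 FPKM in untreated libraries. Of 4 tested there, 2 fell and 1 rose, which was Pdgfra, also in the fibroblast list. The part of these cell types in the values below was not tested. In bulk RNA, fewer cells of a type and less RNA per cell cannot be told apart.

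Of the 36 genes, 35 were tested, and the cocktail moved more of them down than up. In cocktail libraries 6 genes rose (17.1% of those tested, against 26.6% of all 11845 genes tested) and 19 fell (54.3%, against 41.1% of all genes tested), while 10 did not pass the test. The 4 cocktail values lay wholly above the 4 untreated values for 6 members (24.1% of all genes tested did so) and wholly below them for 17 members (38.5% of all genes tested). The median difference was -0.10 over the 35 tested members and -0.05 over all genes tested, with a range among members of -0.77 to 0.56. The genes that rose were the cathepsins Ctsz and Ctsb, the lipid-handling genes Smpd1, Npc2 and Npc1, and the tetraspanin Cd63. The deepest falls were in Cst3, Ctso, Tfeb, Scarb2 and Hexa. The balance of directions depended on scaling: when libraries were rescaled by median ratios, 12 members were called higher and 13 lower, which is 34.3% and 37.1% of those tested, against 36.1% and 33.6% of all genes tested. Rises then made up 51.8% of all calls, against 39.3% without rescaling. The 36 genes together held 1.16% ± 0.0288 of fragments in cocktail libraries and 1.23% ± 0.0115 in untreated libraries (SD, n = 4 each). Their summed FPKM was lower by 12.7% in cocktail libraries. Without Cst3 the sum was lower by 2.83%, with overlapping groups.

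**Figure D1:**
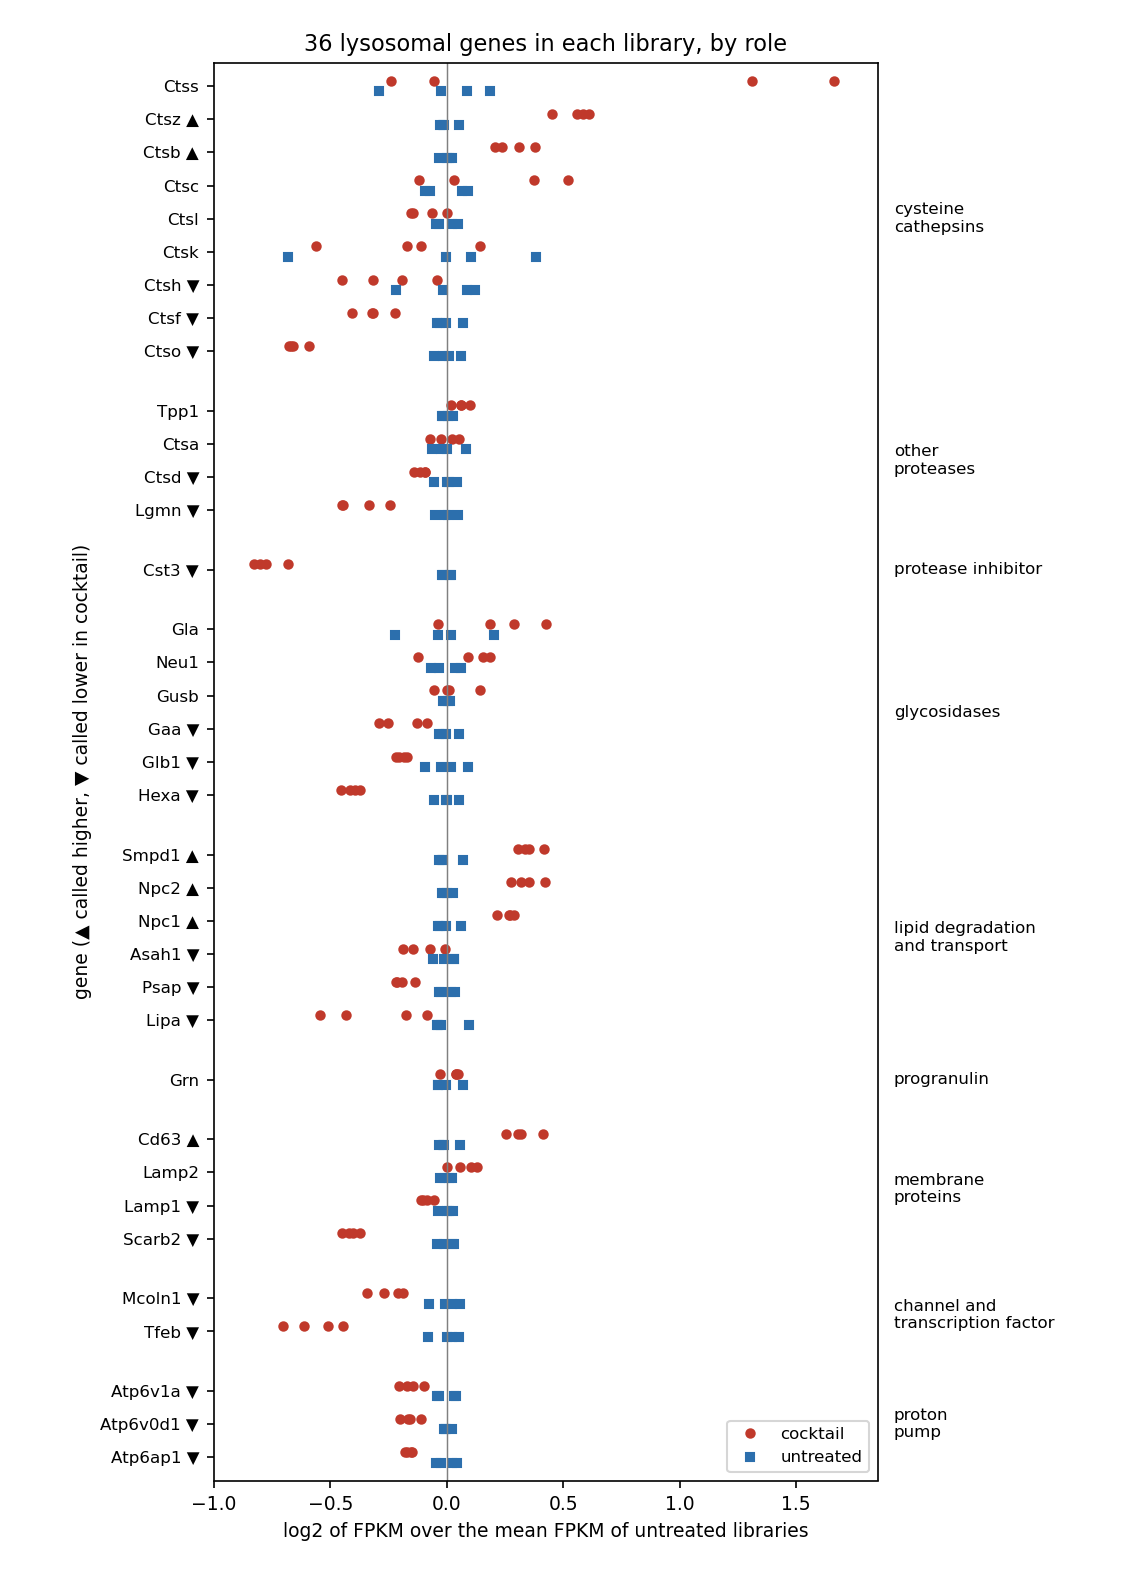
FPKM of each of the 36 genes in each library, as log2 of the ratio to the mean of the 4 untreated libraries, grouped by role; circles are cocktail libraries, squares untreated libraries, and triangles beside the names mark calls (limma, adjusted p under 0.05). Cst3 lies farthest to the left, all 4 cocktail values of Ctsz and Ctsb lie to the right of the untreated ones, and Ctss is split, with 2 cocktail libraries far to the right.

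The sequences below come from promoters in RefSeq's GRCm38.p6 annotation, taken from 250 bases before to 50 after an annotated transcript start, which need not be the outermost start of the gene. Of the 36 genes, 32 had an entry, and 4 of these had more than 1, so that 37 promoters of members were searched, as were all 32851 promoters of 27025 genes. They are shown because the core E-box CACGTG, the element through which TFEB is known to act, was in the promoters of 12 of these 32 genes (37.5%), against 8.09% of the 27025 genes, on either strand and in any of a gene's promoters. The longer palindrome TCACGTGA, which contains the core, was in 6 of 32 (18.75%), against 1.12% of genes. Capitals mark the matches, and each sequence reads 5′ to 3′ on the strand of its gene. The vacuolar pump subunit Atp6v0d1 (chr8:105566041-105566088, minus strand), the aspartic protease Ctsd (chr7:142387899-142387946, minus strand) and the channel Mcoln1 (chr8:3500428-3500500, plus strand) hold the longer form. Lamp1 (chr8:13159080-13159171, plus strand) holds the core 4 times, and Gla (chrX:134601173-134601253, minus strand), an enzyme gene that did not pass the test, holds the longer form at 2 places.
Atp6v0d1: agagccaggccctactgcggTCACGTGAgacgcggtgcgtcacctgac
Ctsd: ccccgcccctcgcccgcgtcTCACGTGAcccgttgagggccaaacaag
Mcoln1: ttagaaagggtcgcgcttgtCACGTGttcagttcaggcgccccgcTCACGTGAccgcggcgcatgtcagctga
Lamp1: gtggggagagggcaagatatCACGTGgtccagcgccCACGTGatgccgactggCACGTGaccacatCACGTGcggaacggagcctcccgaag
Gla: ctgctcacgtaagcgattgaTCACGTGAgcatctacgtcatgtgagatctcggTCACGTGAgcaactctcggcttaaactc

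The other members with the core were Atp6v1a, Ctsa, Ctsf, Ctsl, Gaa, Glb1 and Lgmn, of which Atp6v1a and Ctsa also have the longer form. Among members with a promoter entry, the core was in 9 of 17 genes that fell, in 0 of 4 that rose and in 3 of 10 that did not pass the test. After median-ratio rescaling it was in 5 of 13 called lower, 1 of 10 called higher and 6 of 8 not called, so this split depends on the scaling. Of the genes with the core, Lgmn fell most, by 0.36 on the log2 scale, and Ctsa differed least, by -0.0040. For other motifs searched, a loose form of the NF-κB element, GGG and CC with 5 bases between them, was in 22 of 32 members (68.75%) and 53.5% of genes, a loose interferon-response form, GAAA repeated after 2 bases, in 3 (Ctso, Ctss and Lamp1; 9.375%) and 3.99% of genes, and TTCNNNGAA, a STAT form, in 1 (Ctsc) and 9.55% of genes. These are matches of letters within the window and not binding measurements.

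Tfeb itself (chromosome 17, 47737037 to 47792416) fell. It measured 3.41, 3.18, 2.98 and 3.57 FPKM in cocktail libraries 1 to 4, against 4.85, 5.03, 4.60 and 4.94 FPKM in untreated libraries 1 to 4. Each cocktail value was below each untreated value, and the means were 3.28 ± 0.259 and 4.86 ± 0.185 FPKM (cocktail and untreated, SD, n = 4 each; log2 difference -0.45, SE 0.053, limma adjusted p = 1.1e-05). Mcoln1, the channel that releases calcium from lysosomes, fell to 17.6 ± 0.840 FPKM in cocktail libraries, against 21.0 ± 0.827 FPKM in untreated libraries. Both remained called lower after median-ratio rescaling. The related factor Tfe3, which is not among the 36, rose, with 28.3 ± 0.460 FPKM in cocktail libraries and 22.1 ± 0.653 FPKM in untreated libraries (log2 difference 0.34, limma adjusted p = 9.2e-07), and Mitf, of the same family, fell to 0.980 FPKM in cocktail libraries, against 1.62 FPKM in untreated libraries.

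The 9 cysteine cathepsins, which cleave proteins and activate other lysosomal enzymes, did not move as a block: of 8 tested, 2 rose, 3 fell and 3 did not pass. Ctsz (chromosome 2, 174427494 to 174439039), an exopeptidase, rose most. Its levels were 131, 141, 143 and 146 FPKM in cocktail libraries 1 to 4, against 99.4, 93.9, 94.5 and 94.9 FPKM in untreated libraries 1 to 4. Every cocktail value was above every untreated value, and the cocktail mean was 46.7% higher (log2 difference 0.55, SE 0.036, limma adjusted p = 5.7e-08). Ctsb, an endopeptidase and exopeptidase and the most abundant of the family here, measured 342, 335, 360 and 377 FPKM in cocktail libraries 1 to 4, against 292, 290.0, 283 and 295 FPKM in untreated libraries 1 to 4. The groups did not overlap, the cocktail mean was 21.8% higher (log2 difference 0.28, SE 0.036, limma adjusted p = 2.4e-05), and cocktail libraries 3 and 4 held the highest values. Without those 2 libraries the difference was 0.22 for Ctsb and 0.50 for Ctsz, both still called. In the annotation Ctsb shares 774 bases with its neighbour Fdft1, and Ctsa, Npc1, Glb1, Hexa and Asah1 likewise overlap other protein-coding genes. Ctsz shares 12 bases with Nelfcd, and Ctss shares 628 bases with a pseudogene. Lamp2, Scarb2 and Smpd1 overlap non-coding RNA genes. Since the use of strand in counting is not stated, fragments of such pairs may not be told apart.

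Ctso (chromosome 3, 81932601 to 81956725), one of the less studied cathepsins, fell most. It measured 21.6, 22.8, 21.7 and 21.5 FPKM in cocktail libraries 1 to 4, against 35.8, 34.0, 34.5 and 33.0 FPKM in untreated libraries 1 to 4. Every cocktail value was below every untreated value, and the mean was lower by 36.2% (log2 difference -0.62, SE 0.033, limma adjusted p = 8e-09). Ctsf fell to 33.6 ± 1.75 FPKM in cocktail libraries, against 41.8 ± 1.46 FPKM in untreated libraries (log2 difference -0.31, limma adjusted p = 2.4e-05). Ctsh, an aminopeptidase, was called lower with groups that overlapped, at 7.88 ± 0.957 FPKM in cocktail and 9.32 ± 0.947 FPKM in untreated libraries (log2 difference -0.22, limma adjusted p = 0.033), and it was not called after rescaling. Ctsl, the other abundant endopeptidase of the family, averaged 109 ± 5.60 FPKM in cocktail and 116 ± 3.63 FPKM in untreated libraries and did not pass the test (log2 difference -0.089, limma adjusted p = 0.055). It was called lower with voom on the recovered fragments (-0.090, limma voom adjusted p = 0.033), and was -0.013 and not called after rescaling. Ctsk, best known from osteoclasts, was below the filter, with 23 to 39 fragments in cocktail libraries and 21 to 46 in untreated libraries.

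Ctss (chromosome 3, 95526786 to 95556405), the cathepsin known for invariant chain processing in microglia and other antigen-presenting cells, had the largest positive difference and the widest spread. It measured 2.68, 2.36, 6.91 and 8.82 FPKM in cocktail libraries 1 to 4, against 3.17, 2.74, 2.96 and 2.28 FPKM in untreated libraries 1 to 4. Cocktail libraries 3 and 4 were high, while cocktail libraries 1 and 2 lay within the untreated range, so the groups overlapped and the gene did not pass the test (log2 difference 0.56, SE 0.29, limma adjusted p = 0.11). Without cocktail libraries 3 and 4 the difference was -0.10 (limma adjusted p = 0.383), and without cocktail libraries 1 and 2 it was 1.23 (limma adjusted p = 3.5e-06), the lowest and highest values among 15 alternatives. Leaving out cocktail library 1 or 2 alone also brought a call, with differences of 0.76 and 0.81.

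The summed FPKM of 17 of the 18 microglial markers moved with Ctss: it was 20.6, 23.2, 49.8 and 69.3 in cocktail libraries 1 to 4, against 19.7, 18.1, 20.4 and 16.7 in untreated libraries 1 to 4. Again cocktail libraries 3 and 4 stood apart. Ctss amounted to 0.130, 0.102, 0.139 and 0.127 of that sum in cocktail libraries 1 to 4, against 0.161, 0.151, 0.145 and 0.137 in untreated libraries 1 to 4. Among the defining markers, Csf1r measured 0.935, 1.153, 3.20 and 4.57 FPKM in cocktail libraries 1 to 4, against 1.17, 0.907, 0.936 and 0.596 FPKM in untreated libraries 1 to 4. Tmem119 and P2ry12, both below the filter, did not share this pattern. Tmem119 measured 0.474, 0.611, 0.4425 and 0.872 FPKM in cocktail libraries 1 to 4, and 0.398 to 0.923 FPKM in untreated libraries. P2ry12 measured 0.135, 0.0801, 0.151 and 0.114 FPKM in cocktail libraries 1 to 4, and 0.0604 to 0.135 FPKM in untreated libraries. No marker of the list was at 0 in every library, and Aif1 was at 0 in 1 untreated library. Ctsc, the dipeptidyl peptidase that activates granule proteases of immune cells, was highest in cocktail libraries 3 and 4. It measured 3.16, 2.85, 4.01 and 4.44 FPKM in cocktail libraries 1 to 4, against 3.29, 3.24, 2.94 and 2.90 FPKM in untreated libraries 1 to 4. Its groups overlapped and it did not pass the test (log2 difference 0.16, limma adjusted p = 0.16), with a difference of -0.031 without cocktail libraries 3 and 4 and 0.35, then called, without cocktail libraries 1 and 2. The part of microglial RNA in the values of Ctss and Ctsc was not tested.

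**Figure D2:**
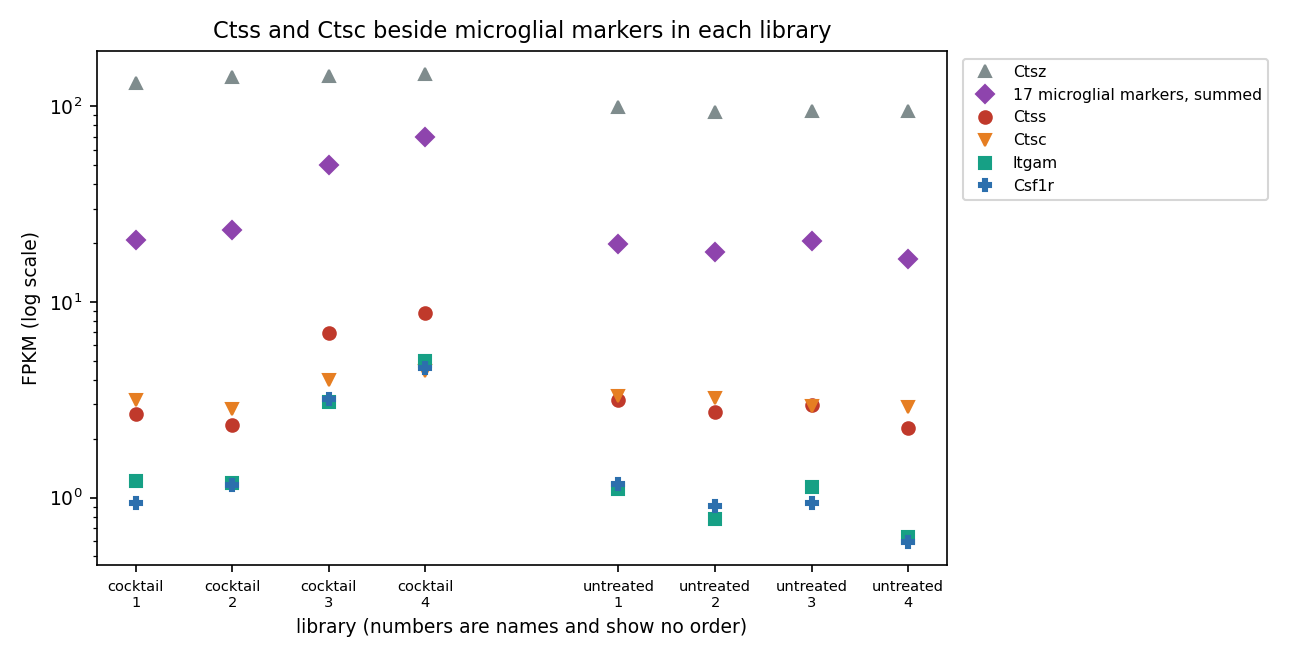
FPKM on a log scale of Ctss, Ctsc, Ctsz, the microglial genes Itgam and Csf1r, and the sum of 17 microglial markers in each of the 4 cocktail libraries (left) and 4 untreated libraries (right). Ctss at 6.91 and 8.82 FPKM in cocktail libraries 3 and 4 stands above its other values, as do Itgam, Csf1r and the marker sum. Ctsz lies between 131 and 146 FPKM in all 4 cocktail libraries and between 93.9 and 99.4 FPKM in untreated libraries.

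Cst3 (chromosome 2, 148871722 to 148875512), which encodes cystatin C, the secreted inhibitor of these cathepsins, fell most of all members. It measured 809, 824, 839 and 895 FPKM in cocktail libraries 1 to 4, against 1451, 1453, 1414 and 1419 FPKM in untreated libraries 1 to 4. The highest cocktail value was far below the lowest untreated one, and the mean was lower by 41.3% (log2 difference -0.77, SE 0.035, limma adjusted p = 1.9e-09), with a range of -0.81 to -0.69 over 15 alternatives. It was still the member with the highest level per length in both groups, ahead of Ctsd, Psap, Lamp1 and Ctsb in that order. The summed FPKM of the 9 cysteine cathepsins was 675 ± 32.8 in cocktail libraries and 593 ± 9.49 in untreated libraries (SD, n = 4 each). Cst3 over that sum was therefore 1.25, 1.27, 1.22 and 1.25 in cocktail libraries 1 to 4, against 2.40, 2.45, 2.43 and 2.39 in untreated libraries 1 to 4. This ratio of levels differed by -0.96 on the log2 scale and is given as a description without a test. Ctsb, Ctsl and Ctsz made up 89.2% ± 0.198 of the cathepsin sum in cocktail libraries and 84.5% ± 0.243 in untreated libraries. Of the other inhibitors measured, Cstb, the intracellular cystatin B, rose, with 107 ± 5.78 FPKM in cocktail and 68.7 ± 2.47 FPKM in untreated libraries (log2 difference 0.63, limma adjusted p = 4.1e-08), and Serpinb6a fell, with 38.6 ± 3.02 FPKM in cocktail and 51.8 ± 1.28 FPKM in untreated libraries. Both are the tested genes of a list of 6, in which the other 4, among them Cst7, were below the filter.

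**Figure D3:**
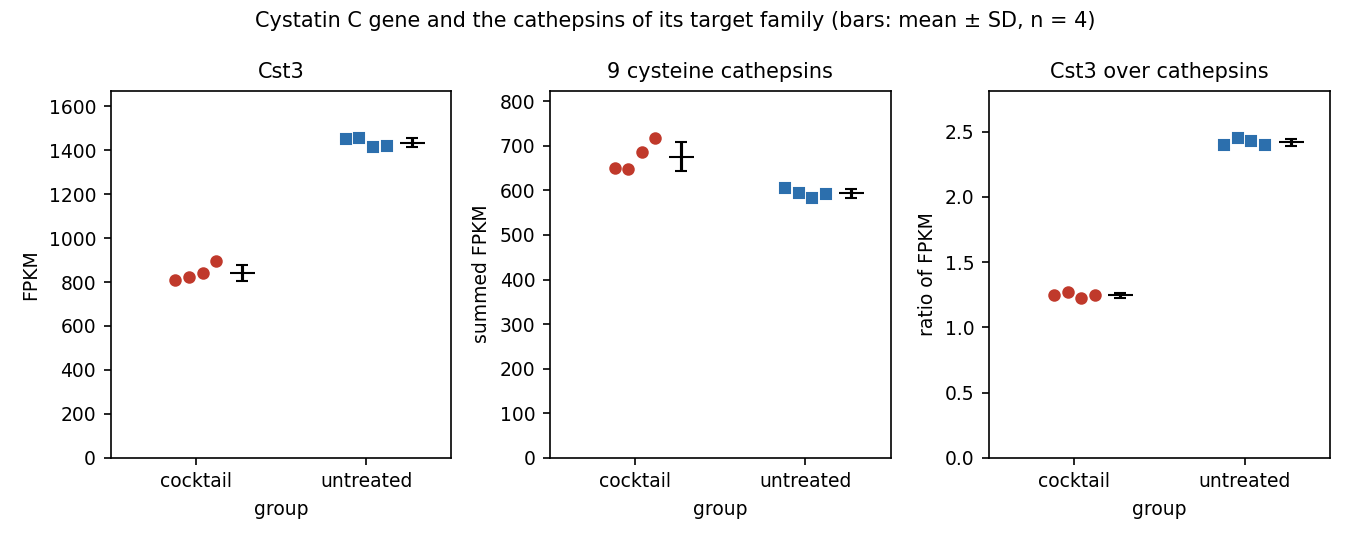
FPKM of Cst3 (left panel), summed FPKM of the 9 cysteine cathepsins (middle) and the ratio of both (right) in each library, with cocktail libraries left of untreated ones and mean ± SD beside them (n = 4 each). Cst3 averages 842 FPKM in cocktail and 1434 FPKM in untreated libraries, and the ratio 1.25 in cocktail and 2.42 in untreated libraries.

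Of the other 4 proteases, 2 fell and 2 did not pass the test. Lgmn, the asparaginyl endopeptidase that trims cathepsins into their mature forms, measured 65.2, 65.4, 70.6 and 75.3 FPKM in cocktail libraries 1 to 4, against 92.0, 88.4, 89.5 and 86.0 FPKM in untreated libraries 1 to 4. The groups did not overlap (log2 difference -0.36, SE 0.044, limma adjusted p = 1.5e-05). Ctsd, the main aspartic protease of the lysosome, was slightly lower, with 829 ± 13.0 FPKM in cocktail and 895 ± 24.9 FPKM in untreated libraries. Its difference of -0.11 was called (limma adjusted p = 0.0056) but was -0.033 and not called after median-ratio rescaling. The carboxypeptidase Ctsa averaged 57.3 ± 2.19 FPKM in cocktail and 57.5 ± 2.49 FPKM in untreated libraries, and its sign changed with the scaling. Tpp1, a tripeptidyl peptidase, averaged 65.8 ± 1.48 FPKM in cocktail and 63.0 ± 0.945 FPKM in untreated libraries (limma adjusted p = 0.0598) and was called higher after rescaling.

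Among 6 glycosidases, which strip sugars from glycoproteins and glycolipids, 3 fell and 3 did not pass. Hexa, a glycosidase of ganglioside degradation, measured 59.2, 60.8, 61.8 and 62.6 FPKM in cocktail libraries 1 to 4, against 81.3, 84.2, 78.1 and 80.8 FPKM in untreated libraries 1 to 4. All 4 cocktail values were below all untreated values, and the mean was lower by 24.6% (log2 difference -0.40, SE 0.030, limma adjusted p = 1.8e-07). The galactosidase Glb1 averaged 28.0 ± 0.408 FPKM in cocktail and 32.1 ± 1.71 FPKM in untreated libraries, and the glycogen-degrading Gaa 69.0 ± 4.75 FPKM in cocktail and 78.5 ± 2.02 FPKM in untreated libraries. Both fell by 0.19 on the log2 scale without overlap between groups, and of these 2 Glb1 stayed called after rescaling. Gla, Gusb and Neu1 overlapped between groups and did not pass the test, with differences of 0.18, 0.024 and 0.071, and all 3 were called higher after rescaling.

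All 6 genes of lipid degradation and transport were called, 3 in each direction. Smpd1, acid sphingomyelinase, which makes ceramide from sphingomyelin, measured 78.6, 83.1, 79.6 and 76.9 FPKM in cocktail libraries 1 to 4, against 65.3, 61.5, 60.8 and 61.4 FPKM in untreated libraries 1 to 4. Npc2, which carries cholesterol inside the lysosome, measured 73.7, 71.4, 75.4 and 79.2 FPKM in cocktail libraries 1 to 4, against 60.3, 58.6, 58.3 and 59.1 FPKM in untreated libraries 1 to 4. Both genes stood above the untreated range in every cocktail library, by 0.35 (limma adjusted p = 1.4e-06) and 0.34 (limma adjusted p = 1.8e-06) on the log2 scale. Npc1, the membrane protein that takes cholesterol from NPC2, was also higher, with 28.5 ± 0.601 FPKM in cocktail and 23.8 ± 0.749 FPKM in untreated libraries (log2 difference 0.25, limma adjusted p = 1.8e-05). In the other direction, Psap, the precursor of the saposins that present lipids to hydrolases, fell to 690 ± 18 FPKM in cocktail libraries, against 786 ± 17.4 FPKM in untreated libraries. Lipa, the acid lipase that frees cholesterol from its esters, measured 11.3, 10.4, 13.4 and 14.3 FPKM in cocktail libraries 1 to 4, against 16.2, 14.8, 14.8 and 15.0 FPKM in untreated libraries 1 to 4. Its groups did not overlap (log2 difference -0.29, SE 0.080, limma adjusted p = 0.0078), with cocktail libraries 3 and 4 nearest to the untreated ones and no call when cocktail libraries 1 and 2 were left out (-0.12). The acid ceramidase Asah1 differed by -0.10 with overlapping groups (limma adjusted p = 0.044), a call lost after rescaling. Grn, which encodes progranulin, a lysosomal and secreted glycoprotein, averaged 104 ± 2.60 FPKM in cocktail and 102 ± 3.6 FPKM in untreated libraries and did not pass the test (log2 difference 0.025, limma adjusted p = 0.49), although it was called higher after rescaling.

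The membrane proteins also split. Cd63, a tetraspanin of late endosomes, lysosomes and exosomes, rose, with 244, 236, 247 and 263 FPKM in cocktail libraries 1 to 4, against 196, 206, 193 and 196 FPKM in untreated libraries 1 to 4. Scarb2, which encodes LIMP-2, a membrane protein that takes part in enzyme delivery to the lysosome, fell, with 44.7, 46.2, 47.2 and 45.7 FPKM in cocktail libraries 1 to 4, against 62.3, 60.5, 62.1 and 59.2 FPKM in untreated libraries 1 to 4. Neither gene's groups overlapped, and the differences were 0.32 (SE 0.035, limma adjusted p = 5.9e-06) for Cd63 and -0.40 (SE 0.028, limma adjusted p = 1.0e-07) for Scarb2. Lamp1, the most abundant membrane protein gene here, was lower by 5.90% at 538 ± 9.46 FPKM in cocktail and 572 ± 10.9 FPKM in untreated libraries (log2 difference -0.088, limma adjusted p = 0.012). That call was lost after rescaling (-0.011). Lamp2, needed for fusion of autophagosomes, averaged 92.8 ± 3.62 FPKM in cocktail and 88.2 ± 1.33 FPKM in untreated libraries and did not pass the test (log2 difference 0.072, limma adjusted p = 0.056), although it was called higher after rescaling, with voom and with the replicate block.

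The 3 proton pump genes were lower in cocktail libraries to much the same extent. Atp6v0d1, a subunit of the membrane sector, averaged 68.7 ± 1.79 FPKM in cocktail and 76.6 ± 0.805 FPKM in untreated libraries. Atp6v1a, the catalytic subunit, averaged 45.9 ± 1.43 FPKM in cocktail and 51.03 ± 1.51 FPKM in untreated libraries. Atp6ap1, an accessory protein, averaged 83.9 ± 0.836 FPKM in cocktail and 93.9 ± 2.69 FPKM in untreated libraries. The log2 differences ran from -0.16 to -0.15 with no overlap between groups, and after rescaling Atp6v1a was no longer called. Of 14 further tested pump subunits, 6 fell, 1 rose and 7 did not pass, with a median of -0.061. The falls were 42.9%, against 41.1% of all genes tested, and the rise 7.14%, against 26.6%. After rescaling 3 were called lower (21.4%, against 33.6%) and 5 higher (35.7%, against 36.1%). In that list the rise was in Atp6v0c, the proteolipid of the membrane ring, at 133 ± 1.19 FPKM in cocktail and 104 ± 3.83 FPKM in untreated libraries (log2 difference 0.36, limma adjusted p = 4.4e-07). Tcirg1, which encodes another subunit of the membrane sector, is outside that list and was singled out after its values were seen. It measured 34.9, 35.9, 37.0 and 39.7 FPKM in cocktail libraries 1 to 4, against 15.3, 15.6, 16.1 and 16.3 FPKM in untreated libraries 1 to 4, with no overlap, and differed more than any other pump gene tested (log2 difference 1.17, SE 0.041, limma adjusted p = 2e-10).

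The other lysosomal genes were counted in lists by role. Of all genes tested, 26.6% rose and 41.1% fell, and after rescaling 36.1% were called higher and 33.6% lower. Of 27 tested hydrolases outside the 36, 20 fell (74.1%) and 4 rose (14.8%), with a median log2 difference of -0.25. After rescaling 17 were called lower (63%) and 4 higher (14.8%). Scpep1, a retinoid-inducible serine carboxypeptidase, had the largest difference of these lists by role. It measured 51.9, 53.6, 55.6 and 58.4 FPKM in cocktail libraries 1 to 4, against 188, 174, 177 and 172 FPKM in untreated libraries 1 to 4. Its untreated values were 3.24 times the cocktail values on average (log2 difference -1.68, SE 0.040, limma adjusted p = 8.1e-12). Sgsh, a sulfatase of heparan sulfate degradation, fell to 2.74 ± 0.223 FPKM in cocktail libraries, against 6.43 ± 0.369 FPKM in untreated libraries. Of 9 genes that sort enzymes to the lysosome, 5 fell (55.6%) and 4 did not pass. The sorting receptor Sort1 fell most, at 27.8 ± 0.185 FPKM in cocktail and 48.9 ± 1.40 FPKM in untreated libraries (log2 difference -0.79, limma adjusted p = 2.3e-10). After rescaling 4 of the 9 were called lower (44.4%) and 1 higher (11.1%).

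Of 19 tested membrane transporters and channels, 5 rose (26.3%) and 8 fell (42.1%), close to the 26.6% and 41.1% of all genes tested. After rescaling 8 were called higher (42.1%, against 36.1% of all genes tested) and 4 lower (21.1%, against 33.6%). Abca2, a lipid transporter of late endosomes and lysosomes, rose to 31.2 ± 0.923 FPKM in cocktail libraries, against 19.5 ± 0.474 FPKM in untreated libraries, and the channel gene Tpcn1 fell to 14.0 ± 0.215 FPKM in cocktail libraries, against 21.4 ± 1.70 FPKM in untreated libraries. Of 16 tested genes of TFEB relatives and mTORC1 signalling at the lysosome, 3 rose (18.8%) and 8 fell (50%). After rescaling 5 were called in each direction (31.2% each). The GTPase gene Rragd measured 13.6 ± 0.255 FPKM in cocktail and 19.96 ± 0.991 FPKM in untreated libraries (log2 difference -0.52, limma adjusted p = 1.7e-07). Of 16 autophagy genes, 2 rose (12.5%) and 6 fell (37.5%), both below the shares of all genes tested. After rescaling 7 were called higher (43.8%) and 4 lower (25%). The cargo receptor genes Optn and Sqstm1 were those that rose, with 17.1 ± 0.567 and 320.3 ± 12.8 FPKM in cocktail libraries, against 11.3 ± 0.851 and 262 ± 5.76 FPKM in untreated libraries. The 76 tested genes outside the 36 that the deposited annotation places in the lysosome pathway, some of them also in the lists above, had 20 rises (26.3%) and 33 falls (43.4%), close to the shares of all genes tested. The largest difference in this pathway list was a rise and exceeded that of Scpep1. It was in Slc11a2, at 34.6 ± 1.45 FPKM in cocktail and 8.22 ± 0.243 FPKM in untreated libraries (log2 difference 1.95, limma adjusted p = 1.5e-12).

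**Figure D4:**
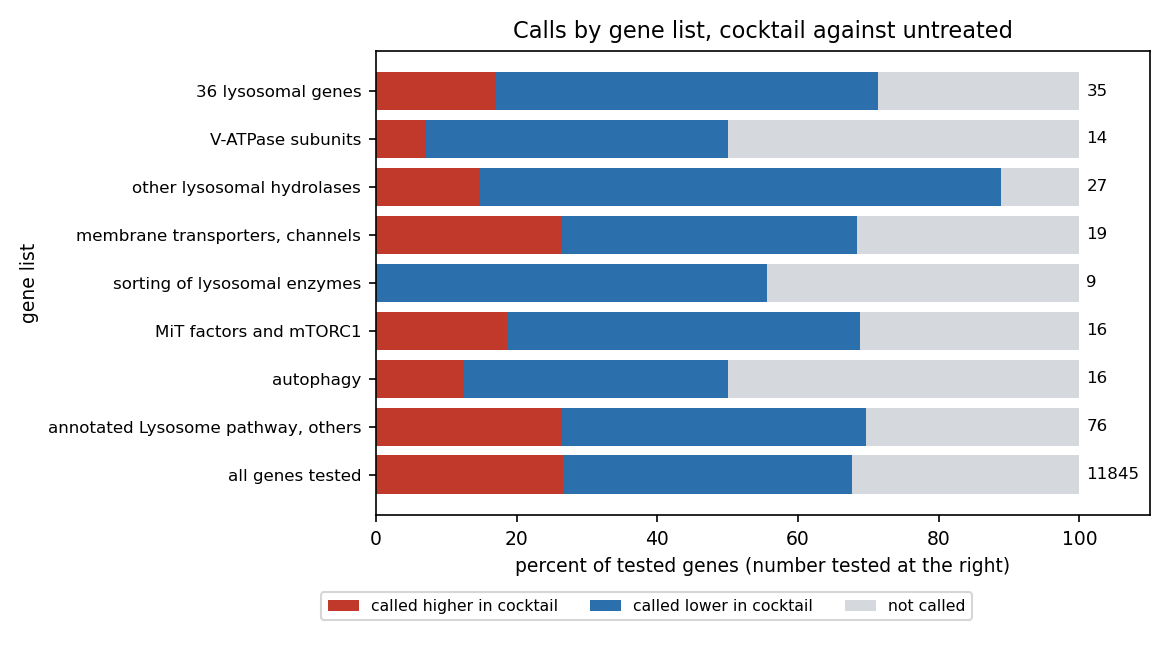
Percent of tested genes called higher (left segment), called lower (middle) or not called (right) in cocktail against untreated libraries, for the 36 genes, 6 lists of other lysosomal and autophagy genes, the rest of the annotated lysosome pathway and all genes tested, with the number tested at the right. The 36 genes show 54.3% lower and the other hydrolases 74.1% lower, against 41.1% of all genes tested.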

How the data were processed

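The authors deposited FPKM per gene and library on build mm10, per the submitters' processing notes, which also name DESeq. The sources used here do not give the aligner, the counting or the use of strand; the libraries were stranded mRNA libraries per the labels' protocols. The deposited FPKM values came from whole fragments: 16557 genes, 100% of those above 0 in 2 or more libraries, gave whole counts, with library totals and gene lengths. The test was limma 3.58.1 (R 4.3.3) with an intensity trend on log2(FPKM + 1) over 11845 genes with Benjamini-Hochberg adjustment. It was run on simulated data with far fewer changed genes than were called here and with libraries drawn independently at a fixed spread. That run cannot speak to the scaling or to differences between libraries of a group. Alternatives were a pseudocount of 0.1, no filter, median-ratio rescaling, voom on the recovered fragments, a replicate block, and fits without each library, without cocktail libraries 3 and 4 and without cocktail libraries 1 and 2. The ratio of Cst3 to cathepsins adds up members and is described without the exact test first planned. Genes of other lists were named from the 2 largest non-overlapping calls in each direction at 5 FPKM or more. Mitf, Tcirg1 and Slc11a2 were added after their values were seen. The microglial sum leaves out 1 marker, which is not reported here. The members and lists were chosen with earlier results of these data known. Libraries of a group differed by more than sampling noise (chi-square per gene 2.11 to 6.79).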

Additional observations from a re-analysis of the deposited data

Results flagged for a closer look

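Among 74 sets of 4 values examined (each of the 36 genes and the ratio of Cst3 to cathepsins, in each group), 3 held a value far from the others, where chance gives about 1 in 20. Grn was 99.99 FPKM in cocktail library 1, while the other cocktail libraries reached up to 105.6 FPKM. Lipa was 16.2 FPKM in untreated library 1, with the lowest untreated value at 14.8 FPKM. Smpd1 was 65.3 FPKM in untreated library 1, with the lowest untreated value at 60.8 FPKM. The direction of Lipa and Smpd1 between groups did not rest on these libraries, since both stayed called without untreated library 1.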

How the results depend on the processing

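Of the 25 calls among members, the 6 rises and 12 of the 19 falls held in all 15 alternatives. Members called higher numbered 12 after median-ratio rescaling, 10 without cocktail libraries 1 and 2, and 6 to 10 when single libraries were left out (10 without cocktail library 2). Rescaling kept 19 of the 25 calls, losing Ctsh, Ctsd, Gaa, Asah1, Lamp1 and Atp6v1a. Ctsa changed sign, with 0.072 after rescaling, 0.039 without cocktail libraries 1 and 2 and -0.024 to 0.024 when single libraries were left out, and Gusb ranged from -0.014 to 0.049 under those omissions. Without cocktail libraries 3 and 4, Ctss was -0.10 and Ctsc -0.031. The cause of these changes was not tested. With a replicate block, 7 members were called higher and 19 lower; same-numbered libraries did not deviate together (correlations -0.044, 0.078, 0.086 and -0.007), so the numbers were not taken as pairs. Ctsh and Asah1 lost their calls in 5 of the 8 single-library omissions and without the filter. Ctsk, Ctss, Gla, Tfeb and Ctsh rest on the fewest fragments.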
